A study of Mus musculus with 8 samples.

Results

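The 100 genes described here are those whose mix of transcript isoforms differed most between adipocyte precursors of the day 5 wound bed and those of nonwounded mouse skin. They were chosen from the isoform table of that comparison. Of 24358 gene symbols, 1210 genes had at least 2 tested isoforms and a summed level of at least 10 FPKM (fragments normalised for transcript length and library size) in both groups, with ribosomal protein genes left out. For each isoform, its share of the gene's summed FPKM was taken in each group, the genes were ranked by their largest share difference, and the first 100, with 280 isoforms, are the members. The share differences chose the members, so they and every fold change and p-value of the same comparison are given as descriptions, with no test of the members as a group.

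Adipocyte precursors (APs) are mesenchymal cells of the dermis that can form fat cells, and the submitters isolated them by fluorescence-activated cell sorting. The series holds 6 samples from nonwounded dorsal skin and 2 from the wound bed at day 5, all from the dermis of male C57/Bl6 mice aged 7 weeks, with no transgene or drug named for either group. The table gives a single FPKM for each group and isoform, as the authors' value, so no value per sample, SD or interval can be printed, the depth is unknown, and how many samples share a direction was not counted. The labels do not say whether samples came from separate animals. The spread between samples that enters the p-values may therefore be technical and not that between animals.

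A gene makes several messenger RNAs when transcription starts at more than a single promoter, when exons are joined in different ways, or when the transcript is cut and polyadenylated at different places. The products can encode different proteins, or the same protein behind different leader or trailer sequences. Short reads that fall in shared exons do not say which isoform they came from, so the share of an isoform is an estimate that rests on the bases in which isoforms differ.

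Isoforms of 5 members are shown as sequence because a defined stretch of coding bases separates the form that gained share from the form that lost it. The sequences are those of GENCODE M21 transcripts on GRCm38, written 5′ to 3′ on the coding strand. Xbp1 encodes a transcription factor of the unfolded protein response, the programme that cells use when unfolded proteins build up in the endoplasmic reticulum. The enzyme IRE1 removes a short piece from its messenger RNA in the cytoplasm, which moves the reading frame and gives the active factor. The piece, in capitals, lies at chr11:5524279-5524304 on the + strand and is 26 bases long. Cuts were placed between the G and the C in the middle of each motif CNGCAG; of 2 such pairs in the coding sequence, the one shown lengthened the reading frame, from 267 to 371 codons. By RefSeq's naming, NM_013842 keeps the piece and NM_001271730 lacks it.
Xbp1 NM_013842: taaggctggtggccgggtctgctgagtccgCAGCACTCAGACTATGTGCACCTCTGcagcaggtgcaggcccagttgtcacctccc
Xbp1 NM_001271730: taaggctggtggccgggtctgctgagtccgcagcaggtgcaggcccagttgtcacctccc

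Vcan encodes versican, a large chondroitin sulfate proteoglycan of loose and provisional matrix. Its isoforms differ in which of 2 long exons that carry the glycosaminoglycan chains they keep. The isoform NM_019389 (V1) holds a coding block of 5217 bases at chr13:89688285-89693501 (- strand), and NM_001134474 (V2) holds another of 2880 bases at chr13:89702918-89705797. The capitals below are the first bases of each block, after the same shared exon.
Vcan NM_019389: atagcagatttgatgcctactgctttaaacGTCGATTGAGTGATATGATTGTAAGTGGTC
Vcan NM_001134474: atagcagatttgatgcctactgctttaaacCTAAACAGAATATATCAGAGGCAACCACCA

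Postn encodes periostin, a matricellular protein of wound and tendon matrix with alternative exons near its C-terminal end. The exon in capitals, 81 bases at chr3:54380412-54380492 (+ strand), is part of NM_001198765 and absent from NM_001198766. Eif4g1 encodes the scaffold of the complex that brings the ribosome to the cap of messenger RNAs. Its isoform NM_145941 holds a pair of coding blocks of 21 bases, at chr16:20674786-20674806 and chr16:20684408-20684428 (+ strand), that NM_001304432 lacks. In Ewsr1, which encodes an RNA-binding protein of transcription and splicing, 111 coding bases in capitals, between chr11:5078580 and chr11:5082283 (- strand), are in NM_007968 and not in NM_001283062.
Postn NM_001198765: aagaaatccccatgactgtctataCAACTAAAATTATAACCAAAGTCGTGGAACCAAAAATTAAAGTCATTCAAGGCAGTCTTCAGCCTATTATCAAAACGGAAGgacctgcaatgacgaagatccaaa
Eif4g1 NM_145941, upstream block: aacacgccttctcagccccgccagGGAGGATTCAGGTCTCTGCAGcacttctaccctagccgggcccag
Eif4g1 NM_145941, downstream block: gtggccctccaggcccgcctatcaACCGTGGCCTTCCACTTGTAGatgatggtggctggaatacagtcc
Ewsr1 NM_007968: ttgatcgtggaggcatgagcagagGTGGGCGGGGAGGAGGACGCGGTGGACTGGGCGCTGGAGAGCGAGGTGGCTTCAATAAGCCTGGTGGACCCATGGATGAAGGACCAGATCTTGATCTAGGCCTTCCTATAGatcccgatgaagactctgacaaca

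In other members the isoforms begin at different promoters. The 100 bases before the start are shown for 3 of the genes with a called isoform. They cover the isoform that gained share and the one that lost it, from RefSeq promoter windows on GRCm38. Capitals mark the motifs searched, TATAAA of the TATA box, the CCAAT box, and GGGCGG of GC boxes, each on both strands, where matches may touch. Over 32851 RefSeq promoter windows of the same length, 5.56% held TATAAA, 18.9% CCAAT and 24.7% GGGCGG, and the median GC content was 55%. Of the windows shown, the gained Ncoa4 promoter holds TATAAA, both Morf4l2 promoters hold CCAAT, and the lost promoters of Morf4l2 and Tcirg1 hold GGGCGG. For Get4, another gene with a called isoform and windows at both starts, neither window held any of the 3 motifs. The Get4 windows are not shown. The Ncoa4 windows lie at chr14:32165689-32165788 and chr14:32159787-32159886 (+ strand), those of Morf4l2 at chrX:136743687-136743786 and chrX:136741353-136741452 (- strand), and those of Tcirg1 at chr19:3905231-3905330 and chr19:3907134-3907233 (- strand), the gained isoform first in each case.
Ncoa4 NM_019744, gained: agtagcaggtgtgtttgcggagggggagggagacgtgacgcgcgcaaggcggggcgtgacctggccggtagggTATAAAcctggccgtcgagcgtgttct
Ncoa4 NM_001033988, lost: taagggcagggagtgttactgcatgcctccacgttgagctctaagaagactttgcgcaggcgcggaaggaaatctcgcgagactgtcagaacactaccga
Morf4l2 NM_001168230, gained: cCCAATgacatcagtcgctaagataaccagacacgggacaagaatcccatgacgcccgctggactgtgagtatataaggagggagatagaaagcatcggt
Morf4l2 NM_001168226, lost: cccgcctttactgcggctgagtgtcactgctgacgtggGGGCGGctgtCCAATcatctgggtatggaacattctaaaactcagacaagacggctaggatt
Tcirg1 NM_016921, gained: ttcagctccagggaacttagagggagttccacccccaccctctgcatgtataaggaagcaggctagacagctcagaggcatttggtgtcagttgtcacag
Tcirg1 NM_001136091, lost: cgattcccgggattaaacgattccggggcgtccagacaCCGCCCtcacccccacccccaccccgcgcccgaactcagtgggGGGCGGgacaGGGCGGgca

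In most members the leading isoform differed between the groups. The summed level of the gene differed little in most members, as it did in most other eligible genes. The largest share difference of a member had a median of 49.4 percentage points (41.8 to 94.2), against 10.8 over all 1210 eligible genes. The most abundant isoform of the wound bed was another than that of nonwounded skin in 87 of the 100, and in 120 of the 1110 other eligible genes (10.8%). Ranking by share difference itself favours such a change, so nothing is read from this contrast. Nor is anything read from the counts of members with another leading isoform in the groups by role below. The share to set beside those counts is 87% of all members. The log2 ratio of the gene's summed FPKM, wound bed over nonwounded, had a median of -0.05 over the members and -0.08 over all eligible genes. It lay within 0.5 of 0 in 70 members and in 63.3% of the other eligible genes, and beyond 1 in 12 members and in 11.6% of the other eligible genes. The lowest and highest ratios were those of Tsc22d3 (-2.86) and Coq10b (1.69).

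**Figure D1:**
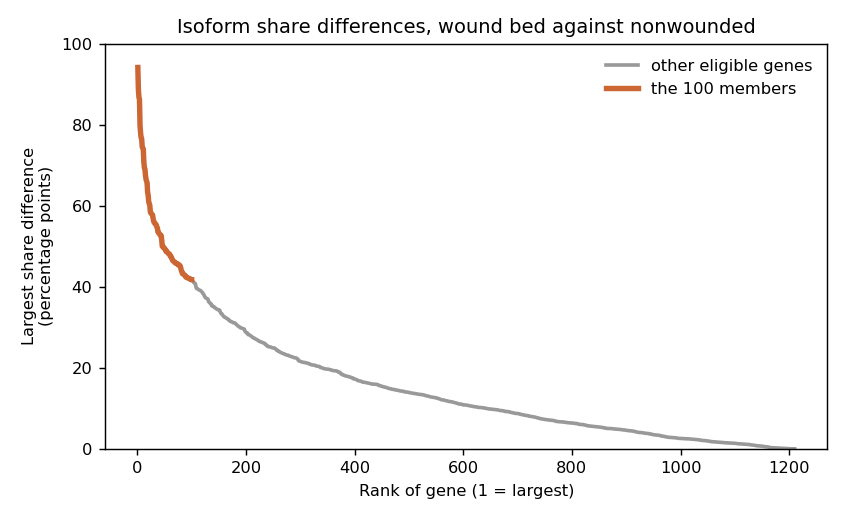
Largest isoform share difference of a gene (vertical axis, percentage points) by rank (horizontal axis) for the 1210 eligible genes, orange for the 100 members and grey for the others. The curve falls from 94.2 points to 41.8 within the members and passes the members' lower end without a step.

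At the threshold of the ranking the values ran on without a gap. Just inside it were Surf1, Slc39a7 and Hk1, each with a share difference of 41.8 points. Just outside were Cox4i1 with 41.6, Tmx2 with 41.5 and St5 with 41.3 points.

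**Figure D2:**
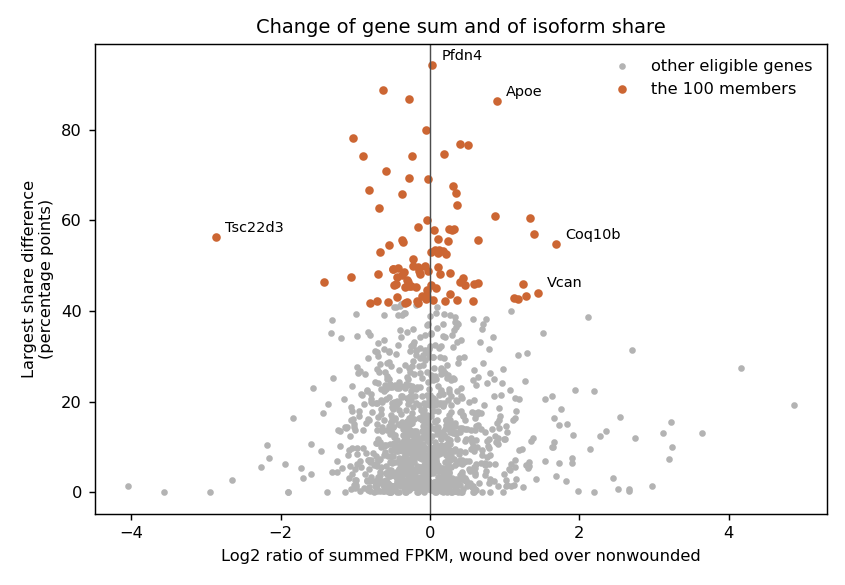
Largest share difference (vertical axis, percentage points) against the log2 ratio of the gene's summed FPKM, wound bed over nonwounded (horizontal axis), 1 point per eligible gene, orange for members. Most members lie near 0 on the horizontal axis, with Tsc22d3 at -2.86 and Coq10b at 1.69 as the ends of their range.

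Most of the single isoforms behind these shares did not pass the test of the authors' table. Pairs of levels are given with the wound bed before nonwounded skin. An isoform is called here where its Cuffdiff p-value in the authors' deposited table, adjusted by Benjamini-Hochberg over all 17775 tested isoforms, is under 0.05. Over all tested isoforms 12.9% were called, 5.66% higher and 7.25% lower in the wound bed, and 21.7% of eligible genes had a called isoform. Of the members, 39 had a called isoform. Among their 280 isoforms 12 were called higher and 33 lower, where 131 and 176 of the 3226 isoforms of eligible genes were. A called lower isoform was present in 32 members, where the background is 12.6% of eligible genes, and a called higher one in 12, where it is 9.75%. Isoforms called in opposite directions were found in 5 members (Hnrnpk, Eif4g1, Vcan, Gapdh and Slc39a7), where the background is 0.579% of eligible genes. Because the ranking used the same values, nothing is read from these counts. The same holds for the counts of calls in the groups by role below, beside which the shares are 21.7% of eligible genes and 39% of the members. In 61 members neither the isoform that gained most share nor the one that lost most was called, and among the 25 members with the largest share differences 9 had such a call. Both of these isoforms had an unadjusted p under 0.05 in 17 members and at least 1 of them in 61. A share difference is thus not itself a tested value, and most of the largest ones rest on FPKM values that the authors' test did not call.

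Markers of the sorted cells were detected in both groups, from Dlk1 at 2.78 and 3.50 FPKM to Dcn at 3153 and 3831, and markers of other cell types stood at different levels in them. The summed FPKM of 11 adipocyte precursor markers was 7884 in the wound bed against 9623 in nonwounded skin, with 2 called lower. Cd34 (679 and 1104), Ly6a (1576 and 2691), Cd24a (9.38 and 24.9), Dcn, Dlk1 and Thy1 stood lower in the wound bed. Pdgfra (91.8 and 80.9), Pdgfrb, Itgb1, Lum and Col6a1 stood higher. The 9 macrophage and monocyte markers summed to 844 and 243, with 7 called higher and Ptprc, the common leukocyte antigen, at 5.68 and 0.806. Summed levels of neutrophil markers were 99.2 and 1.67, with 0 of 3 called and 1 at an unadjusted p under 0.05. Those of keratinocyte markers were 32.2 and 17.3, with 2 of 5 called higher, while Krt15 among them stood lower at 1.24 and 3.73. Lower in the wound bed were the sums of erythroid (135 and 2712, 3 of 4 called lower), endothelial (25.7 and 93.7, 2 of 5), mast cell (6.03 and 58.2, 4 of 4), mature adipocyte (3.17 and 86.5, 1 of 4 tested) and skeletal muscle markers (6.83 and 77.6, 1 of 4 tested). The endothelial sum rested on Tek (18.4 and 83.1) and Lyve1 (0.520 and 5.06), while Cdh5 (1.39 and 0.929), Kdr (3.34 and 3.08) and Pecam1 (2.08 and 1.54) were not lower. The part of these cells in the isoform shares was not tested. In sorted bulk samples, fewer cells of a type and less RNA per cell cannot be told apart.

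The unfolded protein response gene Xbp1 had different leading isoforms in the groups. The isoform without the 26-base piece, NM_001271730, stood at 94.6 FPKM in the wound bed against 24.7 in nonwounded skin and was called higher (log2 fold change 1.94, Benjamini-Hochberg adjusted Cuffdiff p 0.0166 from the authors' deposited table). The isoform that keeps it, NM_013842, stood at 4.96 and 93.1 and was not called, with an unadjusted p of 0.129. Its shares were therefore 4.98% and 79.1%, while the summed level of the gene was 99.6 and 118. The GENCODE cross-references give both accessions the same model, so the 26 bases shown were placed by the motif and not by separate models.

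Vcan stood as a mixture of 3 isoforms in nonwounded skin and mainly as V1 in the wound bed. In nonwounded skin V1 stood at 8.49 FPKM, V2 at 8.35, V3 (NM_001134475, which has neither long exon and codes for the shortest protein) at 7.03 and V0 (NM_001081249, which has both) at 0.494. In the wound bed V1 stood at 52.5 and V0 at 13.1, while V2 and V3 stood at 0.494 and 0.473. V1 was called higher, by 2.63 on the log2 scale, and V2 was called lower, with a log2 fold change of -4.08. The forms that hold the long exon of V1 thus led in the wound bed, with coding sequences of 7182 bases in V1 and 10062 in V0, against 4845 in V2 and 1965 in V3. The summed level of Vcan was 66.5 and 24.4.

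Postn was the member with the highest summed level, 2642 FPKM in the wound bed against 1687 in nonwounded skin. The isoform with the 81-base exon, NM_001198765, stood at 72.5 and 799 and was called lower (log2 fold change -3.46, adjusted p 0.000882 from Cuffdiff). The isoform without it, NM_001198766, stood at 2502 and 819 and was not called. A further isoform, NM_015784, stood at 67.7 and 69.8.

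**Figure D3:**
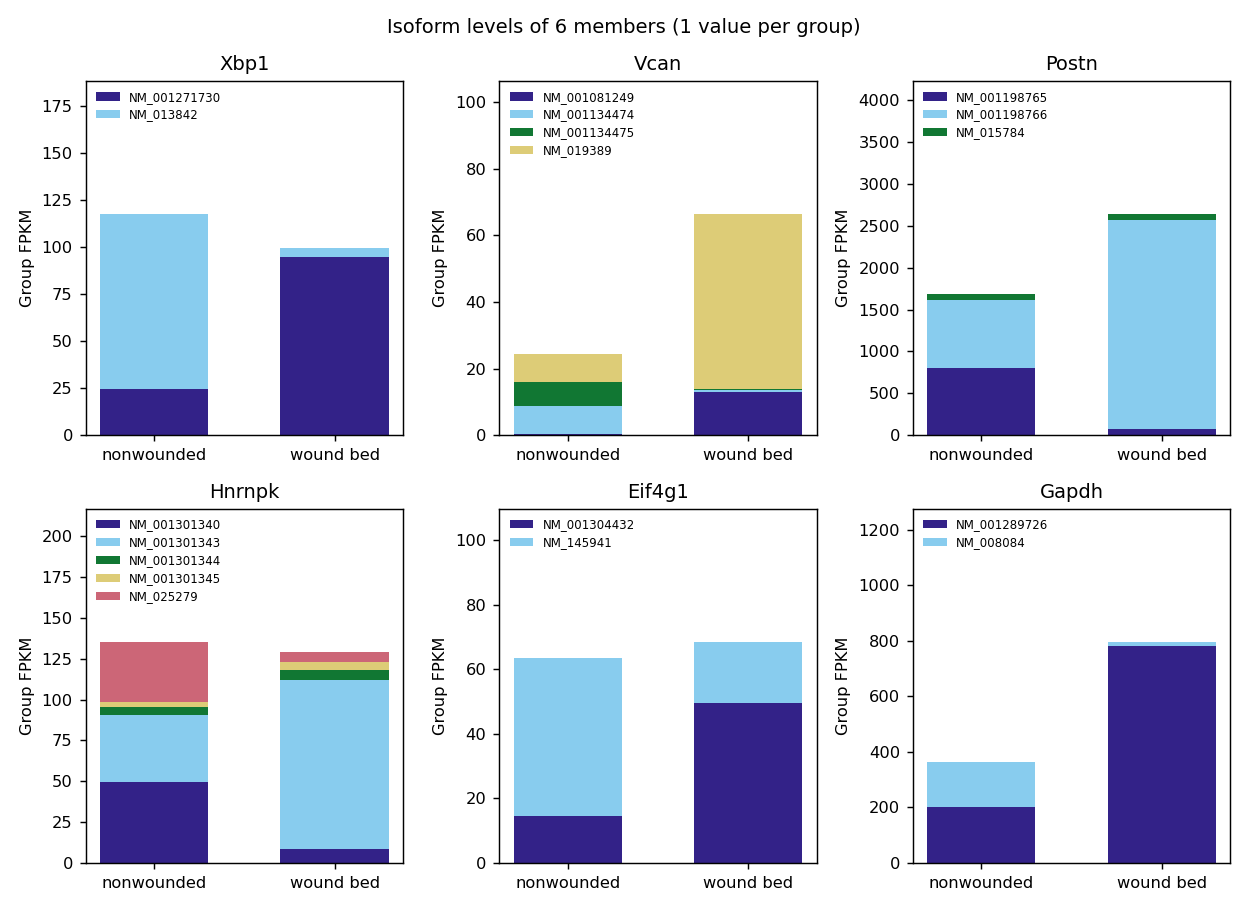
Group FPKM (vertical axes, linear) of the isoforms of 6 members in nonwounded skin and the wound bed, stacked by isoform in colours, 1 value per group and no error bars. The isoform that fills most of the wound bed bar is NM_001271730 for Xbp1 (94.6), NM_019389 for Vcan (52.5), NM_001198766 for Postn (2502), NM_001301343 for Hnrnpk (104), NM_001304432 for Eif4g1 (49.7) and NM_001289726 for Gapdh (781).

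The other secreted proteins among the members are carriers and microfibril components. Apoe, which encodes the lipoprotein component apolipoprotein E, stood at a summed 347 and 187 FPKM. Its isoform NM_009696 was called lower at 41.8 in the wound bed against 183 in nonwounded skin, and NM_001305844, which starts 781 bases downstream and encodes the same protein in the GENCODE models, stood at 304 and 2.26 without a call. That single uncalled estimate makes up 87.6% of the wound bed sum.

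Sepp1 encodes selenoprotein P, a plasma carrier of selenium, and its summed level was 462 and 472. NM_009155 was called lower at 20.3 and 346, while NM_001042613 stood at 441 and 125. In Mfap2, whose product is a glycoprotein of elastic microfibrils, NM_008546 was called lower at 11.5 and 233 and NM_001161799 stood at 203 and 110. All 5 secreted and matrix members had a called isoform, and in Sepp1 and Mfap2, as in Apoe, the paired models share every coding base.

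Several members are factors of RNA processing and translation. Hnrnpk encodes an abundant RNA-binding protein of splicing and translation, and 3 of its 5 isoforms were called. NM_001301343 was called higher at 104 FPKM in the wound bed against 41.0 in nonwounded skin, which is 1.34 higher on the log2 scale. NM_001301340 (8.24 and 49.3) and NM_025279 (6.34 and 37.1) were called lower. The model of NM_001301343 starts 375 bases downstream of that of NM_001301340, and the coding bases of the pair are the same. Summed over its isoforms Hnrnpk stood at 129 and 136.

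In Eif4g1, NM_001304432 was called higher at 49.7 and 14.4 and NM_145941, which holds the 21-base blocks shown above, was called lower at 18.9 and 49.1. In Ewsr1, NM_001283062 was called higher at 36.0 and 4.62 (log2 fold change 2.96), while NM_007968 held 17.4% and 49.2% of the sum, with an unadjusted p of 0.0084. The shorter isoform NM_001283063 stood at 8.75 and 11.9. Nono, a paraspeckle protein that binds RNA and DNA, had no called isoform: NM_001252518 stood at 34.8 and 4.33 and NM_023144 at 29.3 and 66.2.

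Ddx39b encodes an RNA helicase of splicing and messenger RNA export. Its isoform NM_001252457 stood at 51.8 and 20.4 and NM_019693 at 2.22 and 61.3, neither of them called. Rnps1, a component deposited at exon junctions, and Pqbp1, a splicing-associated protein, each had a called lower isoform, NM_001080128 at 7.26 and 23.8 and NM_001252529 at 2.81 and 19.9. Gtpbp2, a GTPase with a role in rescuing stalled ribosomes, Srrt and the RNA helicase gene Ddx6 completed the group of 10 without a call. NM_001145979 of Gtpbp2 stood at 11.2 and 2.38 and NM_019581 at 3.60 and 12.9.

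The machinery that selects isoforms was examined with a list that includes some members and holds 70 splicing regulators, of which 64 were tested. Of these genes 6 had an isoform called higher and 5 an isoform called lower, where 7.21% and 9.16% of 13719 tested genes had one. The higher isoforms were those of Ewsr1 (2.96 on the log2 scale), Hnrnpk (1.34), Ptbp3 (1.10), Hnrnpm (1.03), Ptbp1 (1.02) and Mbnl2 (0.92). The lower ones were the pair of Hnrnpk (-2.58 and -2.55), the isoforms of Nova1 (-1.75), Rbm5 (-1.48) and Clk1 (-1.06), and that of Srsf6 (-1.01). Ptbp1 and Ptbp3 encode polypyrimidine tract-binding repressors of exons, Clk1 a kinase of SR proteins, and Srsf6 an SR protein. Summed over isoforms, the median log2 ratio of the regulators was -0.01, against -0.16 over 13141 tested genes with both sums above 0. Of the 34 regulators that were eligible for the ranking, 3 are members, Hnrnpk, Ewsr1 and Nono, where 100 of all 1210 eligible genes are.

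Of 33 genes of cleavage, polyadenylation and nonsense-mediated decay, 32 were tested. Pcf11, a factor of 3′ end cleavage and termination, was called higher by 1.59 on the log2 scale, and so was Rbbp6 by 0.85. Cstf2t, a cleavage stimulation factor subunit, and Casc3, an exon junction protein, were called lower, with log2 fold changes of -1.44 and -0.86. Only 1 of these genes was eligible for the ranking and none is a member.

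A list of 54 genes with textbook alternative isoforms held 51 tested genes, of which 18 had an isoform called higher and 4 an isoform called lower, where 7.21% and 9.16% of all tested genes had one. The median log2 ratio of its summed levels was 0.43, against -0.16 over all tested genes with both sums above 0. This list was chosen with earlier results of these data known, so nothing is read from its counts or its median. Among its 23 eligible genes 3 are members, where 100 of all 1210 eligible genes are. Those 3 are Postn, Xbp1 and Pdlim5. Pdlim5 encodes an adaptor with PDZ and LIM domains on actin filaments. Its isoform NM_019808 was called higher at 12.3 and 2.60, and NM_001190854, whose model lacks 327 coding bases of the other, stood at 6.63 and 11.9.

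Transcription, chromatin and repair genes number 11, and in all of them the leading isoform differed. Besides Xbp1, the group holds Atf5, a basic leucine zipper factor of stress responses. Its NR_033136, a non-coding accession by RefSeq's prefix, was called lower at 6.98 FPKM in the wound bed against 93.5 in nonwounded skin, while NM_030693 stood at 62.4 and 28.4. The GENCODE model cross-referenced to NR_033136 has the same 849 coding bases as that of NM_030693, so the prefix and the model differ on whether it codes. The share of NM_030693 was 89.9% and 23.3%, at summed levels of 69.3 and 122.

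Tsc22d3 encodes GILZ, a leucine zipper protein known as a target of glucocorticoids. Its summed level of 16.3 against 118 was the lowest ratio among the members. NM_010286 was called lower at 6.35 and 113, with a log2 fold change of -4.15, and NR_122039, non-coding by its prefix and its GENCODE model, stood at 9.54 and 4.72 and led in the wound bed. The share of NM_010286 was 39.1% and 95.4%.

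Morf4l2, a subunit of chromatin acetylation complexes, has 6 tested isoforms. NM_001168226 was called lower at 31.4 and 123, and NM_001168230, whose start lies 2334 bases upstream, stood at 171 and 37.9. Swi5 encodes an accessory factor of homologous recombination and had NM_175190 called lower at 61.8 and 171, with NM_001290552 at 169 and 44.2. In Tcea1, an elongation factor of RNA polymerase, NM_011541 was called lower at 0.316 and 13.4. Polr2m, Nfic, Phf23 and Wdr61 had no called isoform.

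The protein folding and secretory members number 16, the leading isoform differed in all of them, and 4 had a call. Pfdn4, a subunit of the prefoldin chaperone that hands unfolded actin and tubulin to the cytosolic chaperonin, had the largest share difference of all. NM_001013369 stood at 11.8 FPKM in the wound bed against 0.485 in nonwounded skin, and NM_001110152 at 0.201 and 11.3, so that the share of the first was 98.3% and 4.13%. Neither was called, with unadjusted p of 0.171 and 0.123. The sum of the gene, 12.0 and 11.7, is close to the minimum of 10 that the ranking asked for.

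Canx encodes calnexin, a lectin chaperone of the endoplasmic reticulum. Its NM_001110500 stood at 76.9 and 9.50 and NM_007597 at 5.76 and 44.2. Sec23b, a subunit of the COPII coat that buds vesicles from the endoplasmic reticulum, had NM_001252545 at 15.1 and 0.554 and NM_001252544 at 0.0115 and 7.53. For Sec24c, another COPII subunit, NM_172596 stood at 17.3 and 10.6 and NM_001168273 at 1.82 and 15.2. None of the isoforms of these 3 genes was called.

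Txndc5, a disulfide isomerase of the endoplasmic reticulum, had summed levels of 273 and 254. NM_001289599 stood at 241 and 82.9, and NM_145367, whose model begins 576 bases upstream, stood at 28.0 and 168. Slc39a7 encodes a zinc transporter of the same compartment. Its NM_008202 was called higher at 78.7 and 32.3 and NM_001077709 lower at 40.4 and 101, and the paired models share every coding base while their ends lie 527 bases apart. Called lower isoforms were also those of Get4 (2.26 and 12.7), a factor that targets tail-anchored proteins, Jkamp (3.49 and 12.5) and Fam114a2 (3.71 and 14.3). The group's share differences ran from 41.8 to 94.2 points, and Nudcd2, Entpd5, Tmem230, Stx16, Scoc, l7Rn6 and Pomgnt1 made up the rest without a call. In Tmem230, an endosomal membrane protein, NM_001141971 stood at 12.3 and 8.19 and NM_027478 at 0.000754 and 9.84.

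The proteasome and ubiquitin group holds 5 members. Psme2, a subunit of the proteasome activator that interferon gamma induces, had NM_011190 called lower at 11.1 FPKM in the wound bed against 88.1 in nonwounded skin. NM_001029855 stood at 77.0 and 19.4, with an unadjusted p of 0.0118. Dda1, a component of cullin ubiquitin ligases, had 5 isoforms and no call. Its NM_001294259 stood at 12.6 and 0.781 and NM_025600 at 0.419 and 10.1. Psmg4, Rchy1 and Rnf185 had no call either.

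Mitochondrial and metabolic genes form a group of 18, of which 6 had a call. Gapdh, the glyceraldehyde-3-phosphate dehydrogenase of glycolysis, had both isoforms called. NM_001289726 was called higher at 781 FPKM in the wound bed against 201 in nonwounded skin, and NM_008084 lower at 16.2 and 164. In the GENCODE models the start of the gained isoform lies 694 bases upstream and its coding sequence has 78 more bases. The sum stood at 798 and 365, a log2 ratio of 1.13. Gapdh is often used as a reference for expression levels.

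Adh5 encodes the glutathione-dependent formaldehyde dehydrogenase and had the second-ranked share difference, 88.7 points. NM_001288578 stood at 20.3 and 0.296 and NM_007410 at 2.36 and 34.8, neither of them called and both with the same GENCODE model. Mrps23, a protein of the mitochondrial ribosome, was next, with NM_001291273 at 8.80 and 0.112 and NM_024174 at 1.27 and 17.0. Dnajc19, a co-chaperone of the inner mitochondrial membrane, had NM_001286973 at 20.4 and 2.21 and NM_026332 at 0.296 and 17.8.

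Hilpda encodes a lipid droplet protein known to be induced in hypoxia. NM_001190461 stood at 43.6 and 0.00779, and NM_023516 at 28.4 and 28.5, so that the sum of 71.9 and 28.5 differed through the first alone. Coq10b had a similar pattern, with NM_026424 at 28.0 and 1.65 and NM_001039710 at 13.4 and 11.2. Neither gene had a called isoform.

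Other called isoforms of the group were those of Dhrs3, Azin1, Atp5j, Naa60 and Cndp2. Dhrs3 encodes a retinaldehyde reductase and its NM_011303 was called higher at 30.8 and 11.8. Azin1, an inhibitor of the antizyme that degrades ornithine decarboxylase, had NM_001102458 called higher at 9.91 and 1.71. Atp5j, a subunit of the mitochondrial ATP synthase, had NM_001302214 called lower at 5.25 and 99.6. The peptidase gene Cndp2 had NM_001289531 called lower at 11.1 and 41.6. At the threshold, Surf1 (a factor of cytochrome oxidase assembly) and Hk1 (hexokinase) had no call: NM_013677 of Surf1 stood at 14.9 and 15.2 while its NR_073420 was listed at 0 and stood at 9.63, and NM_001146100 of Hk1 stood at 14.5 and 10.6. The acetyltransferase gene Naa60 had NM_029090 called lower at 5.33 and 17.5.

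Nqo2, Bcat2, Papss1, Carkd and Eci2 were further enzyme genes of the group, and none had a call. Nqo2, a quinone reductase, had NM_001163242 at 9.12 and 3.09 and NM_001163241 at 2.35 and 11.4, with unadjusted p of 0.0229 and 0.0147. Eci2, an isomerase of fatty acid oxidation, had NR_073427 at 32.2 and 21.6 and NM_001110331 at 0.0199 and 19.5. The prefix of NR_073427 marks it as non-coding, while its cross-referenced GENCODE model has 1074 coding bases. The share differences of the whole group ran from 41.8 to 88.7 points.

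Receptors, membrane proteins and signalling genes are the largest group, with 20 members, 16 of them with another leading isoform and 5 with a call. Pth1r, the receptor for parathyroid hormone and its related peptide, had the sixth-ranked difference. NM_001083935 stood at 8.66 FPKM in the wound bed against 0.0802 in nonwounded skin and NM_001083936 at 0.00629 and 13.1, without a call. Il11ra1 encodes the ligand-binding receptor of interleukin 11. Its NM_010549 stood at 164 and 34.4 and NM_001163401 at 0.547 and 55.3, and the starts of their models lie 2113 bases apart. The Il11ra1 sum was 165 and 90.9, and no isoform was called.

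Ptp4a2 encodes a small membrane-bound phosphatase. NM_008974 was called lower at 8.10 and 56.9 and NM_001164745 stood at 65.4 and 24.9. Cib1, a calcium- and integrin-binding protein, had NM_011870 called lower at 9.79 and 27.3, and NM_001291276, whose model lacks 144 of its coding bases, stood at 19.2 and 0.743. Rit1, a small GTPase, had NM_009069 called lower at 4.44 and 17.7. Atraid had NM_027855 called lower at 29.4 and 104 and NM_212470 at 51.6 and 28.8, and Fam89b had NM_181452 called lower at 9.87 and 27.6.

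Agtrap, which binds the angiotensin receptor, and Kirrel, an immunoglobulin-type adhesion protein, had no call. NM_001301281 of Agtrap stood at 15.8 and 6.73 and NM_009642 at 0.611 and 23.9. NM_130867 of Kirrel stood at 25.8 and 5.77 and NM_001170985 at 1.83 and 16.6. Prkaca and Prkacb, catalytic subunits of protein kinase A, had their leading form in common between groups, NM_008854 at 29.7 and 19.4 and NM_001164199 at 18.4 and 8.39, while NM_001277898 of Prkaca stood at 0.0974 and 14.3 and NM_011100 of Prkacb at 0.901 and 7.90. Uncalled as well were Inpp5a, Gng12, Sirt2, Nsmf, Ngfrap1, Ttyh3, Slc10a3, Plscr3 and Wbp1. Gng12, a G protein gamma subunit, has 6 tested isoforms, of which NM_001177559 and NM_025278 were listed at 0 in the wound bed. Ttyh3, a membrane protein of the tweety family, had NM_175274 at 31.0 and 7.06 and NM_001308040 at 0.00356 and 6.04.

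In all 7 cytoskeleton members the leading isoform differed. Septin2, a GTP-binding protein that forms filaments, had NM_010891 called lower at 18.5 FPKM in the wound bed against 82.0 in nonwounded skin, and NM_001159717 stood at 67.2 and 5.27 with an unadjusted p of 0.0132. Capzb, a subunit of the protein that caps the growing ends of actin filaments, had NM_001271406 at 137 and 42.8 and NM_001271405 at 3.79 and 59.7. Dctn6, a subunit of the dynactin complex, had NM_001293758 at 17.9 and 2.48 and NM_011722 at 4.26 and 26.5. Pdlim5 and Septin2 were the members of the group with a call. Odf2, Wipf1 and the tumour suppressor gene Nf2 had none.

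The leading isoform differed in all 5 members of the lysosome and autophagy group, and 4 had a call. Rab7, the GTPase of late endosomes, had NM_009005 called lower at 1.59 FPKM in the wound bed against 51.7 in nonwounded skin, and NM_001293653 stood at 94.4 and 43.0, at sums of 96.7 and 96.2. Ncoa4, the receptor that delivers ferritin to autophagy, had NM_001033988 called lower at 3.51 and 17.0, and NM_019744, from the promoter with TATAAA shown above, stood at 18.7 and 10.3. Tcirg1, a subunit of the vacuolar proton pump, had NM_016921 called higher at 12.3 and 2.35. Its start lies 1903 bases downstream of that of NM_001136091, which stood at 7.96 and 17.1.

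Map1lc3a, an autophagosome protein, had the coding NM_025735 called lower at 14.9 and 48.2, and NR_046364, non-coding by its prefix and its GENCODE model, stood at 15.7 and 1.52. Glb1, the lysosomal beta-galactosidase, had no call. Its NR_108102, whose cross-referenced model is that of NM_009752, stood at 27.3 and 5.60 and NM_009752 at 17.6 and 24.5.

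The innate immunity group has 3 members. Tmem173 encodes STING, the adaptor of cytosolic DNA sensing. NM_028261 was called higher at 40.9 FPKM in the wound bed against 8.49 in nonwounded skin, while NM_001289592 stood at 3.62 and 9.10. The interferon-induced genes Ifitm1 and Nmi had no call, with NM_026820 of Ifitm1 at 30.8 and 4.90 while NM_019401 held 88.7% and 30.8% of the Nmi sum. Of 9 macrophage and monocyte markers, 7 were called higher in the wound bed as well, and their part in these levels was not tested.

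**Figure D4:**
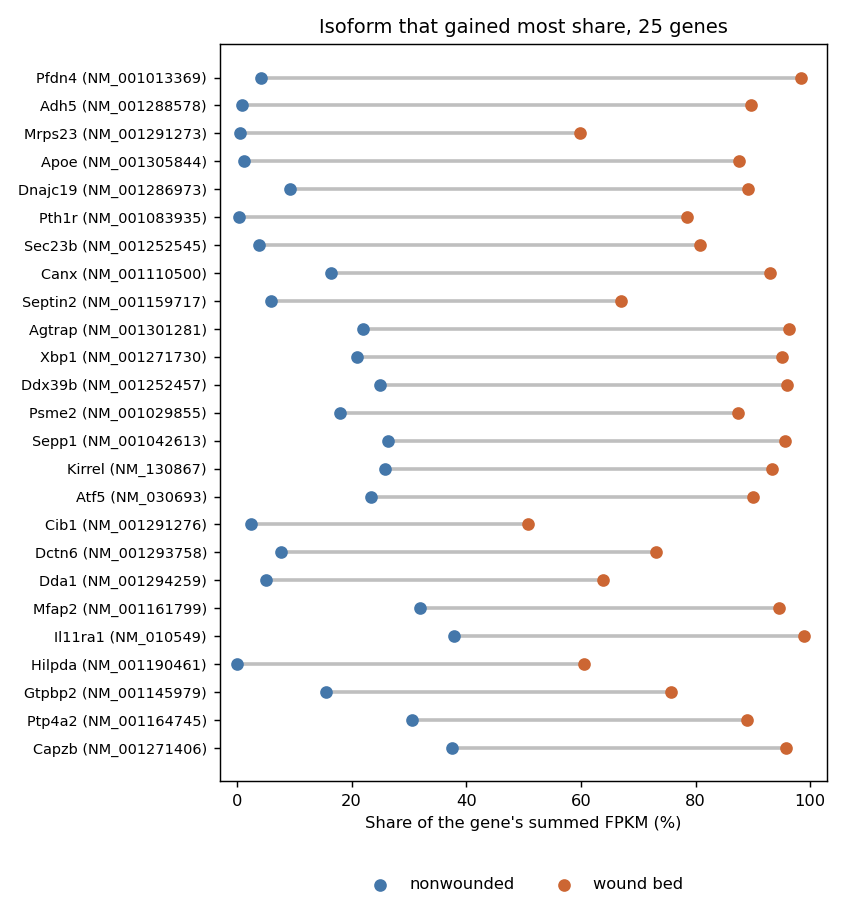
Share of the gene's summed FPKM (horizontal axis, percent) held by the isoform that gained most share, for the 25 members with the largest share differences, blue for nonwounded skin and orange for the wound bed, 1 value per group. Pfdn4 runs from 4.13% to 98.3% and Xbp1 from 20.9% to 95.0%.

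The pairs of isoforms were then compared in structure. The ranking did not use structure directly. FPKM is normalised for transcript length, however, so isoform length entered the shares that chose the members. The isoform that gained most share and the one that lost most could be told apart by their GENCODE models in 82 members, shared their models in 17, and lacked a model for a side in 1. The corresponding shares of the other eligible genes were 82.3%, 13.7% and 3.96%. Among the 25 members with the largest share differences, the pairs of Adh5, Sec23b, Canx, Septin2, Agtrap, Xbp1, Kirrel, Dda1 and Gtpbp2 shared their models. The GENCODE models do not separate the paired isoforms of these genes. Within the 82, the models differed in coding bases in 56 (68.3%) and shared all of them in 26 (31.7%), against 76.7% and 23.3% of the other eligible genes told apart. Cross-references between RefSeq and GENCODE are approximate, and several accessions can point to a single model.

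Starts lay more than 100 bases apart in 45 of the 82 pairs, and the gained isoform started further downstream in 29 of them and further upstream in 16. In the other eligible genes the shares were 22.6% downstream and 22.8% upstream, against 35.4% and 19.5% here. Ends lay more than 100 bases apart in 34 pairs, with the gained isoform ending further upstream in 24 and further downstream in 10. For the other eligible genes these shares were 22.9% and 21.4%. The gained model was the shorter of the pair in 56 members (68.3%) and in 50.9% of the other eligible genes. Median lengths of gained and lost models were 1835 and 2016 bases in the members. In the other eligible genes they were 2565 and 2504.5 bases. These structural shares are descriptions, and no test of them was made.

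The examples span the kinds of difference. In Wipf1 the starts lie 43971 bases apart, in Prkacb 42179 and in Hk1 39366, and all 3 genes lost the model that starts upstream. Pfdn4 and Scoc gained models that start further upstream, by 14807 and 15844 bases. Coq10b, Nudcd2 and Wbp1 lost models with 150, 75 and 105 further coding bases, and Ttyh3 and Pomgnt1 gained models with 135 and 99 more.

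The series of the RefSeq accessions also differed between gained and lost isoforms. The gained isoform had a 9-digit accession number, the series used for later records, and the lost one a 6-digit number in 51 members, the reverse held in 20, and both came from the same series in 29. Among the other eligible genes the first pattern made up 35.1% and the reverse 34.3%. Accessions with the non-coding prefix were the gained isoform in 6 members and the lost one in 3, and in 5.59% and 6.22% of the other eligible genes.

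Shares were more concentrated in the wound bed. The leading isoform held a median of 78.0% of the gene's FPKM in wound bed APs and 65.8% in nonwounded skin over the members, and 79.8% and 75.1% over the other eligible genes. The effective number of isoforms, the inverse of the summed squared shares, was lower in the wound bed in 67 members and in 62.2% of the other eligible genes. Of the 280 member isoforms, 7 (in 5 genes) had a wound bed value of 0 and none a nonwounded value of 0. Levels under 0.1 FPKM were found for 24 (8.57%) in wound bed APs and 4 (1.43%) in nonwounded skin, against 6.52% and 0.747% of the isoforms of other eligible genes. The wound bed value pools 2 samples and the nonwounded value 6, and the number of samples and the wound cannot be told apart in these differences.

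**Figure D5:**
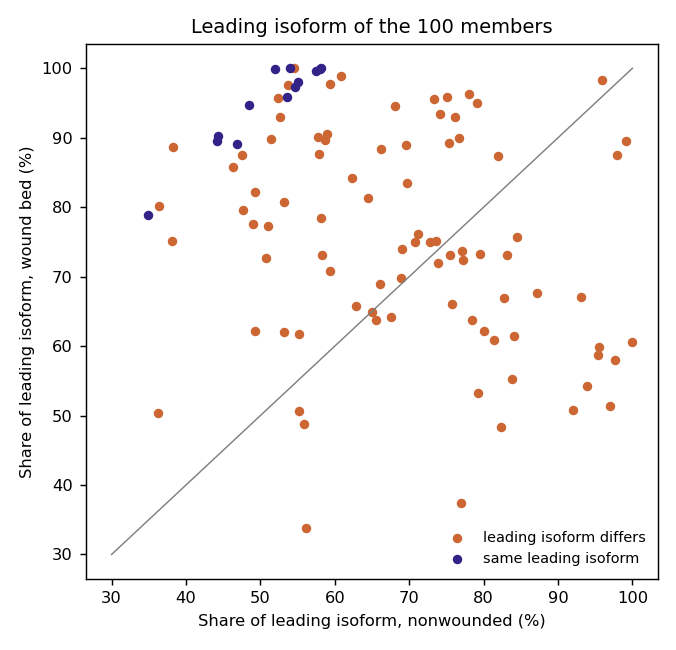
Share of the leading isoform in the wound bed (vertical axis, percent) against nonwounded skin (horizontal axis, percent) for the 100 members, 1 point per gene, orange where the leading isoform differs between groups and dark blue where it is the same, with the line of equal shares. More points lie above the line than below it, with medians of 78.0% and 65.8%.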

How the data were processed

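Per the labels' protocols, RNA was purified by Trizol with a Qiagen micro column and sequenced from Illumina TruSeq mRNA libraries. Reads were aligned with TopHat2 2.0.2 and groups compared with Cuffdiff 2.0.2, per the submitters' processing notes, which name mm9. The authors deposited a table with an FPKM per isoform and group and a p-value per isoform. For 96 of the 100 members the table's locus began or ended within 100 bases of the RefSeq gene on GRCm38. The loci of these members thus match GRCm38, although the notes name mm9. No comparison with mm9 positions was made, and no table coordinates are printed. Of 34535 rows, 17775 had status OK and were used. The number of per-sample columns not used was 0.

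Shares, log2 ratios (no pseudocount) and Benjamini-Hochberg adjusted p-values were computed with Python 3.11.15, numpy 2.4.6 and pandas 2.3.3; the adjusted calls equal the deposited significance column. The adjustment and ranking were tested on simulated data with large planted share shifts and small random noise. That simulation held no errors in assigning reads to isoforms and no unequal sample numbers. Members, gene lists and roles were chosen with earlier results of these data known. Genes are named by share rank, opposite calls, lists, level and closeness to the threshold, and others by role. Of the members, 1 is not reported here by name. Spreadsheet dates in 56 rows were restored to symbols through RefSeq. With 1 value per group, no count model, replicate check or interval was possible.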

Additional observations from a re-analysis of the deposited data

How the results depend on the processing

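Membership depended on the minimum level. With a minimum of 5 FPKM, 156 genes passed the share difference of the last member, the 100 largest had a median of 57.5 points, and 2 had isoforms called in opposite directions; with a minimum of 30 these were 30 genes, a median of 31.1 points and 43 genes with another leading isoform. A pseudocount of 1 FPKM per isoform left 65 genes past that difference and a median of 44.8 points, and ranking by the summed absolute share differences divided by 2 gave a median of 51.1. At an adjusted p under 0.01, 1465 isoforms were called in place of 2294; under 0.1, 12 members had opposite calls in place of 5, and 17 splicing regulators had a call in place of 10. The 100 largest under the minimums of 5 and 30 held 60 and 30 of the members. No paired analysis was possible because the table holds 1 pooled value per group, and for the same reason leaving out single samples was not run. The cause of these shifts was not tested. Low isoform levels, unknown depth and 2 wound bed samples limit every share.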

Other observations

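Ribosomal protein genes were left out of the ranking, and 2 of the 9 that met its other conditions would have been members; this was looked up after the data were seen. Rpl19 would have ranked above Pfdn4: its sum was 918 FPKM in the wound bed against 877 in nonwounded skin, and NM_001159483 held 98.9% and 1.28% of it. Rpl22 would have followed at rank 3, with NM_001277113 at 92.7% and 2.63%. Both genes had a called isoform. The other 7 had share differences of 31.7 points or less.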
